A study of Homo sapiens with 18 samples.

Results

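Small nucleolar RNAs (snoRNAs) and small Cajal body RNAs (scaRNAs) are short noncoding RNAs that work inside protein complexes in the nucleus. C/D box snoRNAs guide ribose methylation, H/ACA box snoRNAs guide pseudouridylation, mostly of ribosomal RNA, and scaRNAs guide the same modifications on spliceosomal RNAs in Cajal bodies. Most human members lie in introns of other genes, are made as part of the host gene's primary transcript, and are released by splicing and trimming rather than transcribed from promoters of their own. A read that maps to such a gene can therefore come from the mature small RNA or from unspliced host RNA, and the counts used here do not tell these apart.

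The genes described here are those whose symbol is SNORA, SNORD or SCARNA followed by a number and at most 1 letter, with at least 18 reads summed over all 18 libraries. There were 50 such genes among the 426 genes with a symbol of that form and the 58051 genes listed in each library. The genes were thus chosen by their read number summed over all libraries, and their overall abundance is given as a description. Of the other 376 genes, 287 had no read in any library and 89 had between 1 and 17. Just inside the minimum were SNORD59A with 18 reads, SNORD63 with 19 and SNORD89 with 20. Just outside it were SNORA2A, SNORD124 and SNORD20 with 17 each, and SCARNA9, SNORA59A and SNORA71C with 16 each.

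The libraries came from hTERT RPE-1, a human retinal pigment epithelial line immortalized with telomerase. Cells grown with 10% serum were kept for 48 h in 0.1% serum, and the etoposide arm (ETOP) was then exposed to 50 µM etoposide, a topoisomerase II poison that leaves DNA breaks, for 30 min, while the DMSO arm was not. In both arms transcription was then blocked with 10 µM triptolide, an inhibitor of the TFIIH helicase XPB, and RNA was collected at time points labelled 0, 20 and 40, whose unit the labels do not give. Each of the 6 groups had 3 libraries, which the labels describe as independent replicates of 1 line. Whether the cells at time point 0 had met triptolide is not stated.

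Read totals ranged from 7957691 to 11580219 per library, with a median of 10114787.5, so that 3 reads corresponded to 0.259 to 0.377 CPM, the read count scaled to 1000000 reads of the library. Poly(A) selection was part of the library kit, and mature snoRNAs carry no stable poly(A) tail. The epithelial keratins KRT8 and KRT18 averaged 697 and 655 CPM, and the pigment epithelium regulators MITF and OTX2 averaged 43.1 and 26.4 CPM. The mature pigment epithelium markers RPE65, RLBP1, PMEL and TYRP1 averaged 0.152, 0.843, 1.56 and 0.488 CPM, and TTR was at 0. BEST1, another marker on that list, ran from 0.522 to 2452 CPM, with its highest value in a DMSO library of time point 0. Of blood markers, HBB was at 0 in every library and PTPRC averaged 0.574 CPM with reads in every library. The endothelial markers PECAM1, VWF and CDH5 averaged 1.07, 0.583 and 0.0258 CPM. Replicate 2 of DMSO at time point 0 stood apart, with reads in 20410 genes, against at most 19989 in any other library. Replicate 3 also differed from the others over certain genes: 59 genes had no read in any of its 6 libraries but at least 10 reads in each of the other 12, while no gene had that pattern for replicate 1 or replicate 2. The file headers of replicate 3 are also worded differently, and whether its reads were counted in another way was not tested. None of the 50 genes was among the 59, and their reads summed to 818, 873 and 811 in replicates 1, 2 and 3.

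Together the 50 genes held 2502 reads, or 13.7 CPM over all libraries. There were 29 C/D box, 18 H/ACA box and 3 Cajal body genes. Totals per gene over the 18 libraries ran from 18 to 143 with a median of 34, and only 4 of the 50 genes had a read in every library. The 5 most abundant genes held 24.3% of these reads and the 20 most abundant held 67.6%. Mean levels over all libraries ran from 0.101 CPM to the 0.786 CPM of SNORA33. Depth on any 1 gene is thus low, and counting error is a large part of every single value below.

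In the GENCODE 29 annotation of GRCh38, 48 of the 50 lay inside another gene on the same strand. Their 42 hosts fell into 3 kinds. Ribosomal protein genes, 10 in number, held 13 of the small RNA genes, other protein-coding genes held 23, and noncoding genes, mostly of the snoRNA host gene (SNHG) type, held 12. SNORD3A and SNORA11F had no host. Lengths, taken as the annotated span of the gene, ranged from 68 to 699 bases with a median of 118. Exons of other genes on the same strand overlapped 8 of the 50 genes (16%), against 144 of the 376 genes of the same name type that missed the minimum (38.3%).

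The sequences of genes on which the results turn are given from the GENCODE 29 transcripts, 5′ to 3′, to show their guide RNA boxes. Capitals mark the C box TGATGA within the first 20 bases and the D box CTGA within the last 20 bases of C/D box genes, or an ACA within the last 6 bases of H/ACA box and Cajal body genes. SNORD101, SNORD100 and SNORA33 lie in this order within the introns of RPS12, at chr6:132815307-132815379, chr6:132816802-132816877 and chr6:132817219-132817348 on the plus strand of GRCh38. SNORD104 lies within SNHG25 at chr17:64146083-64146152 on the plus strand. SNORA73B lies at chr1:28508559-28508762 on the plus strand, inside both RCC1 and SNHG3. SNORD99 lies within SNHG12 at chr1:28578749-28578822 on the minus strand. SNORD83A lies within RPL3 at chr22:39315213-39315307 on the minus strand, SNORD14A within RPS13 at chr11:17074654-17074744 on the minus strand, and SCARNA13 within SNHG10 at chr14:95533355-95533629 on the minus strand.
SNORD101: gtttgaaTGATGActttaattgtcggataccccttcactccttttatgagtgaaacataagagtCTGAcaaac
SNORD100: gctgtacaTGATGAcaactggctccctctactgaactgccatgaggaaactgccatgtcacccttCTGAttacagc
SNORA33: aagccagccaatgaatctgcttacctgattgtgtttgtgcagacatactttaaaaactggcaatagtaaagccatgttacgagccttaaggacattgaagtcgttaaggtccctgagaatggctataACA
SNORD104: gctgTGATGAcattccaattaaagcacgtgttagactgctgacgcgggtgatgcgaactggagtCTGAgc
SNORA73B: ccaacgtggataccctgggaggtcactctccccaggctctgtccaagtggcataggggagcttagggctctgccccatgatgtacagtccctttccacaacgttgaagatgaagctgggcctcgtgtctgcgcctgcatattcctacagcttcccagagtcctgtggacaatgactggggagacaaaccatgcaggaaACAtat
SNORD99: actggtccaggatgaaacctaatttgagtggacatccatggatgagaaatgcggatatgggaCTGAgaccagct
SNORD83A: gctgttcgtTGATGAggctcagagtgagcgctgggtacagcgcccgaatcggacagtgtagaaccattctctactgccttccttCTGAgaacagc
SNORD14A: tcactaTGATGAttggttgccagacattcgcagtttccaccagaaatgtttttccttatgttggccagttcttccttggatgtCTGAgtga
SCARNA13: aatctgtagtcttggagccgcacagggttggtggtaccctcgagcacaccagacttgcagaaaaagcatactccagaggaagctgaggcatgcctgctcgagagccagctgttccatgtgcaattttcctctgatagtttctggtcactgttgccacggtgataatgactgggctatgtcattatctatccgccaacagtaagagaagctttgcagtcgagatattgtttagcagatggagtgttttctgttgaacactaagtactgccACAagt

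Searched on the transcript strand, the exact C box stood in 22 of the 29 C/D box genes (75.9%), against 107 of the 191 C/D box genes of any abundance that had a sequence (56.0%). The D box stood in 28 of the 29 (96.6%), against 169 of 191 (88.5%). Of the 18 H/ACA box genes, 16 had the ACA (88.9%), against 173 of 210 (82.4%). A match is only a match of letters, and SNORD99 has no exact C box in its first 20 bases.

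Summed over the 50 genes, the level was lower at time point 40 than at time point 0 in both arms, in every replicate. In ETOP libraries the sums for replicates 1, 2 and 3 were 22.1, 24.1 and 26.4 CPM at time point 0, then 12.90, 13.98 and 14.07 CPM at 20, then 6.54, 7.68 and 6.37 CPM at 40. No library of 1 ETOP time point overlapped those of another. DMSO libraries gave 14.04, 25.2 and 15.3 CPM at time point 0, then 17.3, 12.9 and 12.9 CPM at 20, then 4.87, 5.25 and 5.98 CPM at 40. In DMSO, time points 0 and 20 overlapped, while all libraries of time point 40 lay below both. In these bulk libraries fewer cells that hold an RNA and less of it per cell cannot be told apart.

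Means of the summed level in ETOP were 24.2 ± 2.15 CPM at time point 0, 13.7 ± 0.65 CPM at 20 and 6.86 ± 0.71 CPM at 40 (SD, n = 3 each). In DMSO they were 18.2 ± 6.14, 14.3 ± 2.54 and 5.36 ± 0.56 CPM (SD, n = 3 each). Relative to time point 0, the sum stood at 56.4% at 20 and 28.4% at 40 in ETOP, and at 78.9% and 29.5% in DMSO. CPM is relative to all reads of the same library, so these percentages are not the fraction of RNA left per cell. By replicate number, the sum at 40 was 24.1% to 31.9% of that at 0 in ETOP and 20.8% to 39.2% in DMSO. At time point 20 it was 53.3% to 58.3% in ETOP, while DMSO spread from 51.0% to 123%. The number of the 50 genes with any read was 22 to 28 in ETOP libraries and 15 to 27 in DMSO libraries at time point 40, against 41 to 46 in ETOP and 38 to 45 in DMSO at time point 0.

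**Figure D1:**
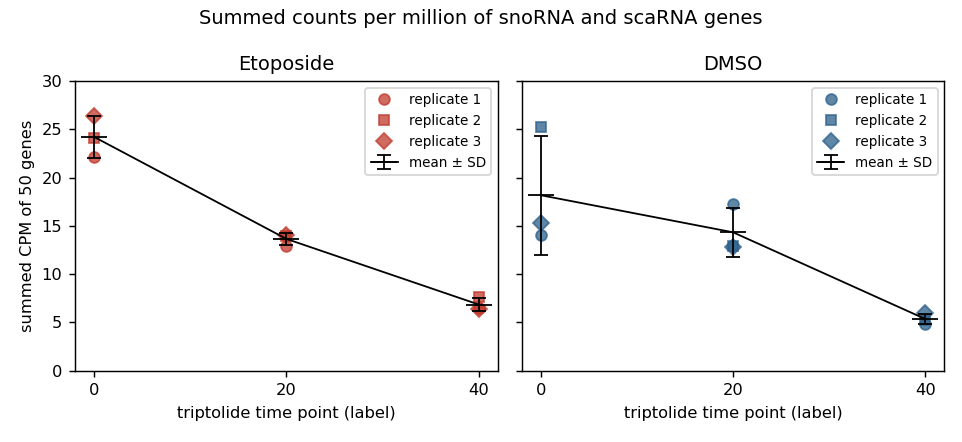
Summed CPM of the 50 snoRNA and scaRNA genes (y axis) in each library at the triptolide time points labelled 0, 20 and 40 (x axis), with ETOP on the left and DMSO on the right. Symbols mark replicates, and the black line joins the mean ± SD of 3 libraries. ETOP separates into 3 levels, while DMSO is separated only at time point 40, where its sums lie between 4.87 and 5.98 CPM.

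The lower sum at time point 40 was also seen without the most abundant gene and without genes that overlap exons. Without SNORA33, the sum at 40 was 30.6% of that at 0 in ETOP and 31.3% in DMSO. Over the 42 genes that overlap no exon of another gene on their strand, it was 28.2% in ETOP and 31.1% in DMSO. Some snoRNAs have near-identical copies, between which the authors' counting could split or drop reads. Of the 50, 6 shared an unbroken run of at least 40 bases with another gene of the family. They were SNORD62B, all 86 of whose bases stand in SNORD62A, and SNORD3A, SNORA22, SNORA73B, SNORA70 and SNORA11, whose counts are uncertain for that reason. Over the other 44 genes, the sum at 40 was 26.6% of that at 0 in ETOP and 27.1% in DMSO.

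Gene by gene, most of the 50 had a lower mean CPM at time point 40 than at 0. In ETOP this held for 43 of the 50 genes, beside 56.0% of the 18786 genes with at least 18 reads in all. In DMSO it held for 41 of 50, beside 54.1% of the same genes. All 3 libraries of time point 40 lay below all 3 of time point 0 for 20 of the 50 genes in ETOP, beside 5.51% of all genes, and for 23 of the 50 in DMSO, beside 4.98%. The same held at time point 20 for 13 genes in ETOP, beside 3.17% of all genes, and for 7 in DMSO, beside 2.56%. No read was left at time point 40 for 10 of the 50 genes in ETOP and for 11 in DMSO. At time point 0 this was so for 0 of them in ETOP and 1 in DMSO. The share of all genes without a read at 40 is not given, so these counts are a description only. The median log2 change fitted by edgeR from 0 to 40 was -1.53 over the 50 genes in ETOP and -2.14 in DMSO. Over all genes tested it was near 0 in both arms. The scaling of each library would give this also if most genes fell together. With genes that had no read at 40 set to the bound given by 3 reads, and genes at or under 3 reads in both groups left out, the medians were -1.31 over 48 genes in ETOP and -2.02 over 42 genes in DMSO.

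Single genes were tested with edgeR's quasi-likelihood test over all genes, with Benjamini-Hochberg adjustment. Of the 50, 5 passed edgeR's default filter on low counts, which a gene can pass through the groups in which it is high, so these 5 are described 1 by 1, and calls among them are not read as a share of the 50. SNORA33, SNORA73B, SNORD104, SNORD99 and SNORD63B are these genes. At 40 against 0 the test called SNORA73B and SNORA33 lower in ETOP, where 0.204% of the 14186 genes tested were called lower, and SNORA73B lower in DMSO, where 0.423% were. With all 50 genes in the test, under the 18-read minimum, the same test called SNORA33 and SNORA73B in ETOP, beside 0.149% of genes, and SNORA73B in DMSO, beside 0.293%. An unadjusted p below 0.05 was reached by 16 of the 50 genes in each arm, all lower at 40. Among all genes, 2.34% reached it in that direction in ETOP and 5.91% in DMSO.

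SNORA73B, an H/ACA box snoRNA that acts in cleavage of the pre-rRNA rather than in its modification, had 19, 14 and 16 reads in the ETOP libraries of time point 0, then 2, 3 and 5 at 20, and 0, 0 and 1 at 40. DMSO libraries had 11, 12 and 9 reads at time point 0, then 10, 8 and 6 at 20, and 0, 1 and 1 at 40. In both arms every library of time point 20 lay above those of 40 and below those of 0 in CPM. The pooled CPM ratio of 40 to 0, with its 95% exact interval for counting error, was 0.0219 (0.000543 to 0.128) in ETOP, from 1 read against 49. In DMSO it was 0.0551 (0.00639 to 0.216), from 2 reads against 32. The fitted log2 change was -5.04 (SE 0.80, adjusted p = 0.0105, edgeR) in ETOP and -3.94 (SE 0.74, adjusted p = 0.0239, edgeR) in DMSO. The ETOP call was lost without replicate 1 (adjusted p = 0.0999) or replicate 2 (adjusted p = 0.0898) of time point 40 in edgeR. The DMSO call was lost without replicate 1 or 2 of time point 0 (adjusted p = 0.0720 and 0.0864, edgeR), and without replicate 1, 2 or 3 of time point 40 (adjusted p = 0.118, 0.119 and 0.0754, edgeR). These fits with a library left out did not use the pairing by replicate number. With the replicate number as a block and all libraries, under the 18-read minimum, edgeR called SNORA73B lower in both arms, beside 0.676% of all genes in ETOP and 1.05% in DMSO.

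SNORA33, an H/ACA box gene in an intron of RPS12, had 23, 9 and 25 reads in ETOP at time point 0, then 6, 4 and 6 at 20, and none in any of the 3 libraries at 40. In DMSO it had 7, 21 and 9 reads at time point 0, then 4, 12 and 14 at 20, and 0, 1 and 2 at 40. The ETOP time points did not overlap, whereas DMSO at 0 and 20 did. With 3 reads over the group as the floor, SNORA33 was at least 17.7-fold lower at 40 than at 0 in ETOP. This change had an adjusted p of 0.0201 in edgeR. In DMSO the pooled ratio was 0.0714 (0.0141 to 0.226), and the log2 change of -3.65 (SE 0.84) did not pass the test (adjusted p = 0.108, edgeR). With the replicate number as a block, the DMSO change passed it (adjusted p = 0.0257, edgeR), where 1.21% of all genes were called lower. The ETOP call was lost in edgeR without replicate 1 or 3 of time point 0 (adjusted p = 0.0806 and 0.0677), and without replicate 1, 2 or 3 of time point 40 (adjusted p = 0.126, 0.102 and 0.0892).

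Both other small RNA genes of RPS12 also had fewer reads at time point 40 than at 0, but neither passed the edgeR test without the replicate block. SNORD100, a C/D box gene, had 15, 3 and 8 reads in ETOP at time point 0, then 2, 0 and 3 at 20, and 2, 0 and 0 at 40. DMSO libraries held 2, 11 and 2 reads of it at 0, then 8, 0 and 0 at 20, and none at 40. SNORD101, also C/D box, had 4, 2 and 6 reads in ETOP at 0, then 3, 2 and 5 at 20, and 0, 0 and 1 at 40. The DMSO reads were 10, 4 and 4 at 0, then 6, 6 and 2 at 20, and none at 40. Under the 18-read minimum the adjusted p values in edgeR at 40 against 0 were 0.496 in DMSO for SNORD100 and 0.0946 in DMSO for SNORD101, and higher in ETOP. At time point 20 in ETOP, SNORD101 had 10 reads in all against 12 at 0, and SNORA33 had 16 against 57. Summed over the 3 genes, an RPS12 set chosen after its values were seen, the level at 40 was 3.31% of that at 0 in ETOP and 3.88% in DMSO. RPS12 itself, which encodes a protein of the small ribosomal subunit, averaged 889 ± 221 CPM at 40 and 880 ± 234 CPM at 0 in ETOP (SD, n = 3 each). In DMSO it averaged 931 ± 257 CPM at 40 and 948 ± 160 CPM at 0. Its log2 changes were 0.05 in ETOP and -0.01 in DMSO.

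SNORD104, a C/D box gene in SNHG25, had the highest single value of any of the 50 genes. ETOP libraries had 13, 34 and 18 reads at time point 0, then 5, 5 and 9 at 20, and 0, 2 and 2 at 40. DMSO libraries had 7, 7 and 8 reads at 0, then 7, 2 and 10 at 20, and 0, 3 and 2 at 40. The log2 change from 0 to 40 was -3.78 (SE 0.85) in ETOP and did not pass the test (adjusted p = 0.116, edgeR), but it passed with the replicate block (adjusted p = 0.00563, edgeR), where 1.01% of all genes were called lower. In DMSO it was -2.23 (SE 0.86) and did not pass (adjusted p = 0.773, edgeR). SNORD99, a C/D box gene in SNHG12, had 12, 17 and 16 reads in ETOP at time point 0, then 8, 5 and 3 at 20, and 3, 4 and 0 at 40. Its DMSO reads were 3, 9 and 10 at 0, then 1, 6 and 3 at 20, and 3, 2 and 1 at 40. Its log2 changes of -2.51 (SE 0.74) in ETOP and -2.00 (SE 0.78) in DMSO did not pass (adjusted p = 0.473 and 0.792, edgeR). SNORD63B of HSPA9, a gene for a mitochondrial chaperone, spread widely, with 7, 1 and 18 reads in ETOP at 0 and 3, 3 and 2 at 40. It lies wholly in an annotated exon on its strand, and its log2 changes of -1.47 in ETOP and -1.70 in DMSO did not pass.

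Named genes in other ribosomal protein genes mostly had few or no reads at time point 40. SNORD83A of RPL3 had 4, 10 and 13 reads in ETOP at time point 0, then 8, 5 and 3 at 20, and 0, 1 and 0 at 40. In DMSO it had 8, 3 and 5 reads at 0, then 3, 11 and 3 at 20, and none at 40, which makes it at least 6.05-fold lower at 40 than at 0. SNORD14A of RPS13, of a family that also takes part in pre-rRNA cleavage, had 9, 3 and 22 reads in ETOP at 0, then 6, 3 and 2 at 20, and 0, 2 and 0 at 40. SNORD14A in DMSO had 2, 10 and 4 reads at 0, then 3, 3 and 6 at 20, and none at 40. SNORA3B of RPL27A had 4, 1 and 1 reads at 40 against 14, 8 and 8 at 0 in ETOP, and 0, 0 and 2 against 4, 4 and 4 in DMSO. SNORD4A of RPL23A had 1, 5 and 2 reads at 40 against 10, 18 and 7 at 0 in ETOP, but 9, 1 and 2 against 1, 18 and 4 in DMSO, where the groups overlapped. In DMSO, with the replicate block under the 18-read minimum, SNORD83A and SNORD101 passed the edgeR test as well as SNORA73B and SNORA33 (adjusted p = 0.0474 for SNORD83A and 0.0465 for SNORD101), beside 1.05% of all genes called lower. The corresponding ETOP test called SNORA33, SNORA73B and SNORD104, beside 0.676% of genes. In DMSO under the same minimum, limma-voom called SNORA73B and SNORD30, beside 0.240% of all genes called lower, and DESeq2 called 0 of the 50, beside 0.552%.

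Other named genes showed no clear difference between time points 40 and 0. SCARNA13, a Cajal body RNA in SNHG10, had 4, 7 and 5 reads in ETOP at time point 0, then 11, 6 and 4 at 20, and 8, 9 and 3 at 40. In DMSO it had 7, 1 and 3 reads at 0, then 8, 5 and 9 at 20, and 10, 2 and 6 at 40. The time points overlapped in both arms, with pooled ratios of 40 to 0 of 1.34 (0.66 to 2.77) in ETOP and above 1 in DMSO. SNORD3A, the snoRNA of the large complex that cleaves pre-rRNA, has a promoter of its own and no host. It had 0, 5 and 8 reads in ETOP at 0, then 3, 3 and 1 at 20, and 6, 3 and 3 at 40. In DMSO it had 3, 4 and 5 reads at 0, then 24, 5 and 3 at 20, and 3, 4 and 3 at 40. The 24 reads of replicate 1 stood alone. SNORD62B of PRRC2B had 3, 4 and 7 reads at 40 against 4, 6 and 3 at 0 in ETOP, and 1, 8 and 7 against 1, 2 and 3 in DMSO. SNORA55 of PABPC4 had 8, 4 and 1 reads at 40 against 0, 2 and 8 at 0 in ETOP, and 0, 2 and 2 against 2, 3 and 3 in DMSO. None of these changes passed the edgeR test, and the intervals of their ratios hold both lower and higher levels.

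The remaining named genes were mixed. SNORD17 of SNX5, a sorting nexin gene, had 0, 4 and 2 reads at 40 against 5, 6 and 8 at 0 in ETOP, and 5, 7 and 6 against 6, 7 and 1 in DMSO. At time point 40 the ETOP libraries of SNORD17 all lay below the DMSO libraries, as did those of SNORD89, with no read in ETOP and 4, 1 and 1 in DMSO (2 of 50, beside 1.98% of all genes). SNORA71B of SNHG17 had 7, 2 and 5 reads at 40 against 13, 8 and 10 at 0 in ETOP, and 0, 0 and 2 against 3, 3 and 6 in DMSO. SNORD14E of HSPA8, a gene for a cytosolic chaperone, had 0, 7 and 0 reads at 40 against 5, 14 and 4 at 0 in ETOP. The DMSO libraries had 0, 1 and 0 against 6, 3 and 2. Replicate 2 held most SNORD14E reads in several groups, with 9 of 10 at time point 20 in ETOP and all 18 in DMSO. SNORA11F had 1, 1 and 3 reads at 40 against 4, 8 and 4 at 0 in ETOP, and 3, 6 and 1 against 1, 2 and 4 in DMSO. SCARNA12, a Cajal body RNA in PHB2 that is mostly covered by an annotated exon, had 0, 6 and 1 reads at 40 against 2, 3 and 2 at 0 in ETOP, and 0, 1 and 0 against 2, 4 and 0 in DMSO.

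**Figure D2:**
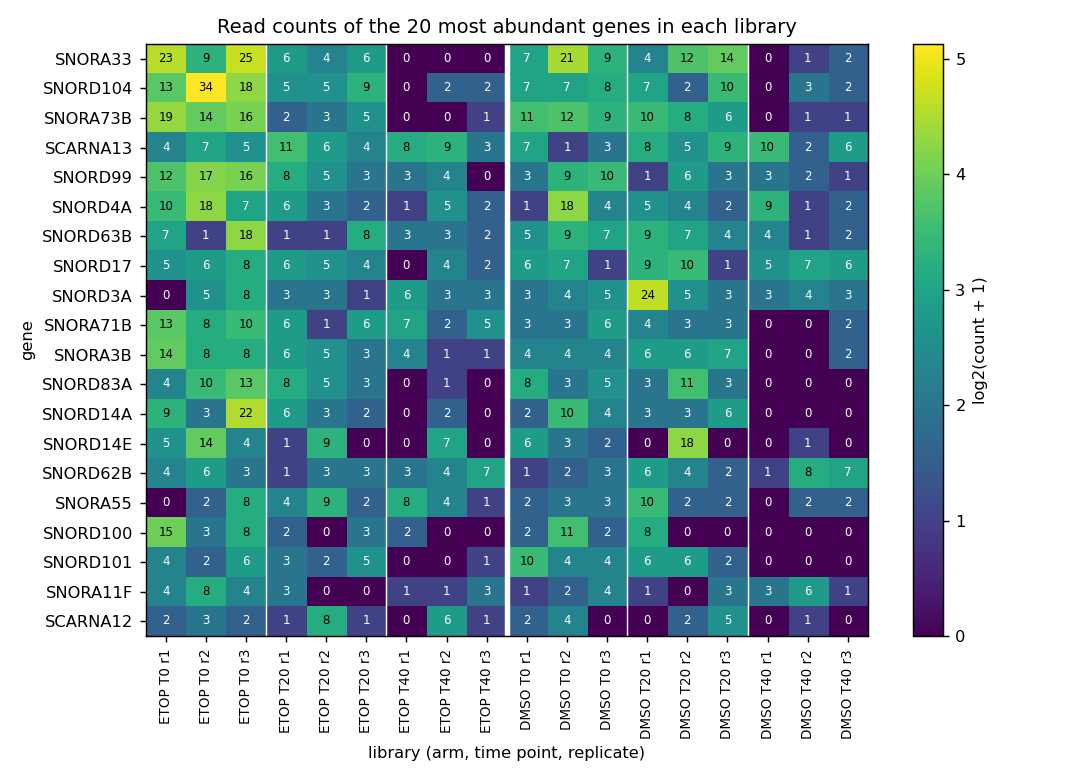
Reads of the 20 most abundant genes (rows, by mean CPM) in each of the 18 libraries (columns, ETOP left of the thick line and DMSO right of it, by time point and replicate). Numbers are reads and the colour scale is log2(count + 1). SNORA33, SNORA73B, SNORD83A and SNORD14A have at most 2 reads in any library of time point 40, while SCARNA13 and SNORD62B reach 10 and 8 there.

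By class, the summed level at 40 was 26.2% of that at 0 for C/D box genes in ETOP and 29.7% in DMSO. For H/ACA box genes it was 23.9% in ETOP and 20.0% in DMSO. The 3 Cajal body genes stood at 103% in ETOP and 115% in DMSO, with sums of 0.977 ± 0.697 CPM at 40 and 0.951 ± 0.427 CPM at 0 in ETOP (SD, n = 3 each). In DMSO the Cajal body sums were 0.784 ± 0.464 CPM at 40 and 0.681 ± 0.258 CPM at 0. These 3 genes hold few reads, and their replicates spread more widely than the difference between time points. By gene span, the 6 genes of at least 200 bases stood at 47.6% in ETOP and 52.0% in DMSO, and the 44 shorter genes at 24.3% in ETOP and 24.8% in DMSO. SNORA71B counts here by its span of 272 bases, while its transcript has 134. Without it, the 5 longer genes stood at 47.6% in ETOP and 57.7% in DMSO.

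By kind of host, the 13 genes in ribosomal protein genes had the lowest share left, which here means CPM as a percent of time point 0. Their summed level was 8.87 ± 1.74 CPM at time point 0, 3.73 ± 0.19 CPM at 20 and 0.901 ± 0.348 CPM at 40 in ETOP (SD, n = 3 each), which is 42.1% at 20 and 10.2% at 40. In DMSO it was 6.78 ± 3.33, 4.18 ± 0.28 and 0.747 ± 0.504 CPM, which is 61.7% at 20 and 11.0% at 40. For replicates 1, 2 and 3 the share at 40 was 9.03%, 18.1% and 5.68% in ETOP, and 22.0%, 1.65% and 20.4% in DMSO. Replicate 2 of DMSO at time point 0, the library that stood apart, held 10.6 CPM, against 5.10 and 4.63 CPM in replicates 1 and 3. In the other protein-coding hosts the share left at 40 was 40.1% in ETOP and 42.1% in DMSO. In noncoding hosts it was 34.3% in ETOP and 30.4% in DMSO. The shares of these kinds depend on SNORA73B, which counts here under RCC1 but also lies in the noncoding gene SNHG3. In ETOP it held 1.54 of the 7.73 CPM of the other protein-coding hosts at time point 0, and 0.0366 of 3.10 CPM at 40. SNORD3A and SNORA11F, the genes with no host, together stood at 62.6% in ETOP and 90.6% in DMSO.

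Share left also varied with the distance of the small RNA gene from the annotated start of its host, in classes chosen after values were seen. For the 15 genes less than 3000 bases from the host start, the sum at 40 was 15.7% of that at 0 in ETOP and 14.9% in DMSO. For the 20 genes between 3000 and 10000 bases it was 29.3% in ETOP and 25.8% in DMSO, and for the 13 genes at 10000 bases or more it was 52.1% in ETOP and 66.3% in DMSO. At time point 20 the group means had the same order, with 47.3%, 59.7% and 77.6% in ETOP and 63.5%, 77.5% and 105% in DMSO. Within replicate numbers, only replicate 1 of each arm held that order at 20. Replicate 3 of DMSO had the reverse order, with 90.4%, 84.8% and 78.8%, and the farthest class stood at 223% in replicate 1 of DMSO. By replicate number, the nearest class stood at 13.4% to 17.5% at time point 40 in ETOP and 8.3% to 22.7% in DMSO, and the farthest class at 47.7% to 60.8% in ETOP and 56.0% to 74.97% in DMSO. The nearest and farthest classes did not overlap at time point 40, but at 20 they did.

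Position and host kind overlap, since no ribosomal protein host holds a gene at 10000 bases or more. Without the ribosomal protein hosts, the shares left at 40 were 23.6%, 42.6% and 52.1% in ETOP and 22.4%, 34.3% and 66.3% in DMSO, from the nearest class to the farthest. The near and middle classes then changed order in replicate 3 of ETOP, with 27.1% near and 25.4% in the middle, and in replicate 1 of DMSO, with 28.3% near and 24.8% in the middle. Without SNORD62B, whose sequence is not unique, the farthest class stood at 42.9% in ETOP and 50.9% in DMSO. Across single genes the Spearman correlation of the log2 ratio of 40 to 0 with this distance was 0.32 over 46 genes in ETOP and 0.44 over 40 genes in DMSO. With gene length it was 0.37 over 48 genes in ETOP and 0.15 over 42 genes in DMSO. These are descriptions, since all genes share the same libraries and several share a host, and what part host kind, length and distance each have was not tested.

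**Figure D3:**
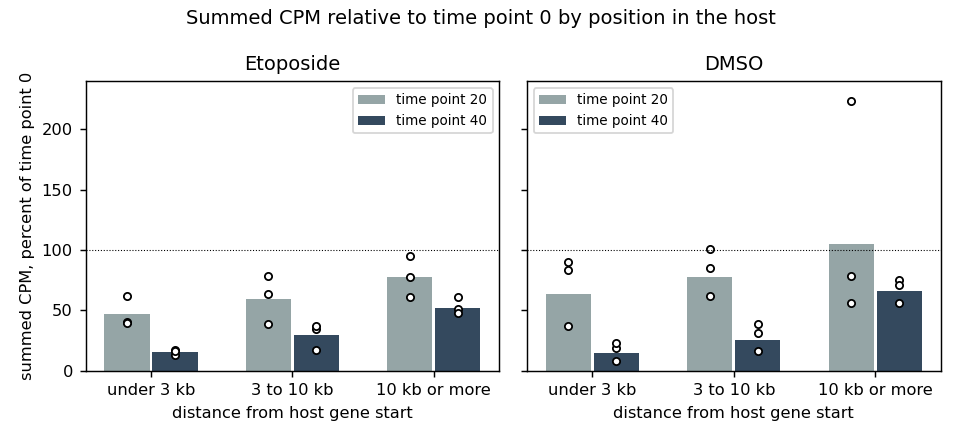
Summed CPM at time points 20 (grey) and 40 (dark) as a percent of time point 0 (y axis), for genes under 3 kb, 3 to 10 kb and 10 kb or more from the start of the host (x axis), with ETOP on the left and DMSO on the right. Bars are ratios of group means and open circles are the ratios within each replicate number. The share left at time point 40 runs from 15.7% to 52.1% in ETOP and from 14.9% to 66.3% in DMSO, and the circle above 200% is replicate 1 of DMSO at time point 20.

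Relative to the rest of each library, host genes as a group differed little between time points 40 and 0. The scaling sets most genes near no change, so a loss shared by most genes would not show here. Over the 42 hosts, all of which were tested, the log2 change from 0 to 40 had a median of 0.02 in ETOP (range -1.13 to 0.20) and of -0.00 in DMSO (range -1.39 to 0.62). In ETOP 15 hosts and in DMSO 23 hosts had a negative log2 change. Of these 42 hosts edgeR called 0 in ETOP and SNHG12 alone in DMSO (adjusted p = 0.0327), beside 0.204% and 0.423% of all genes called lower. Each host is the most abundant gene that contains the small RNA gene. SNHG3, which also contains SNORA73B, is therefore not among the 42, and it was called lower in both arms. With the replicate block, SNHG1 and SNHG12 of the 42 were called lower in both arms. The small RNA gene had a lower log2 ratio than its host in 37 of the 46 pairs with a ratio or bound in ETOP and in 34 of 40 pairs in DMSO. Across these pairs the Spearman correlation between small RNA gene and host was -0.04 in ETOP and 0.09 in DMSO, a description over genes that share libraries.

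SNHG12, the noncoding host of SNORD99, averaged 13.5 ± 3.75 CPM at 40 and 30.3 ± 4.51 CPM at 0 in ETOP (SD, n = 3 each), a log2 change of -1.13 that did not pass the test (adjusted p = 0.171, edgeR). In DMSO it averaged 9.90 ± 1.44 CPM at 40 and 26.1 ± 6.24 CPM at 0, a log2 change of -1.39. SNORA73B lies in a pair of genes that differed. RCC1, which encodes the nucleotide exchange factor of Ran, had log2 changes of 0.02 in ETOP and 0.03 in DMSO. SNHG3, the noncoding gene that also contains SNORA73B, averaged 27.7 ± 1.71 CPM at 40 and 65.0 ± 3.38 CPM at 0 in ETOP, and its log2 change of -1.20 passed the test (adjusted p = 0.000501, edgeR). In DMSO it averaged 32.6 ± 3.70 CPM at 40 and 62.4 ± 9.11 CPM at 0, with a log2 change of -0.92 (adjusted p = 0.00327, edgeR). SNHG10, the host of SCARNA13, had log2 changes of -0.63 in ETOP and -0.38 in DMSO that did not pass the test.

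**Figure D4:**
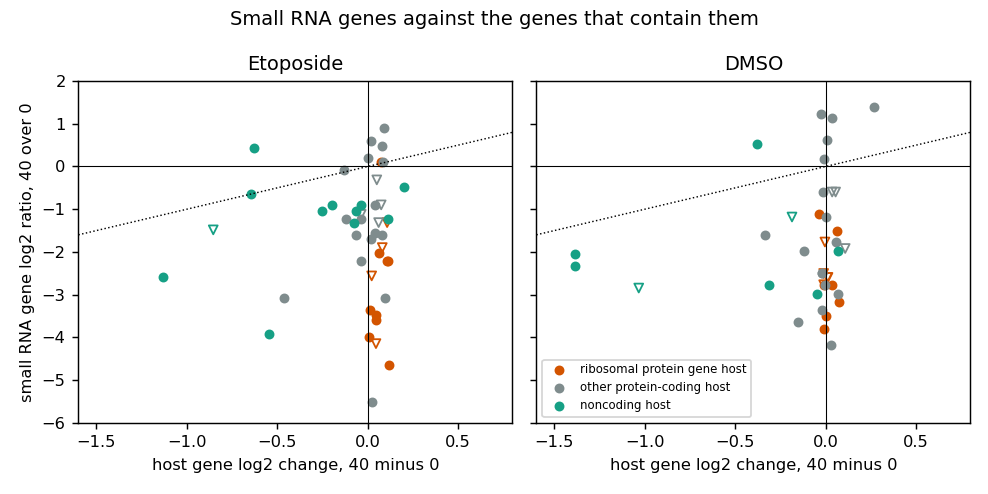
Log2 ratio of 40 to 0 of each small RNA gene (y axis) against the fitted log2 change of the gene that contains it (x axis), with ETOP on the left and DMSO on the right. Colours give the kind of host, open triangles are bounds for genes with no read at 40, and the dotted line marks equal values. Most points lie below the line, with hosts close to 0, in 37 of 46 pairs in ETOP and 34 of 40 pairs in DMSO.

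At time point 20 edgeR called 0 of the 50 genes, and 0 of all genes tested, in either arm. Under the 18-read minimum an unadjusted p below 0.05 was reached by 2 of the 50 in ETOP, beside 1.35% of all genes, and by 2 in DMSO, beside 4.19%. DESeq2 and limma-voom also called 0 of the 50, but the share of all genes they called is not given. A lower mean CPM at 20 than at 0 was seen in 36 of the 50 genes in ETOP, beside 54.5% of all genes, and in 31 of 50 in DMSO, beside 52.6%. SNORD30, a C/D box gene, had 2 reads at 20 against 19 at 0 in DMSO, and 4 against 9 in ETOP.

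Between the arms edgeR without the replicate block called 0 of the 50 genes, and 0 of all genes tested. At time point 0 the sum was 24.2 ± 2.15 CPM in ETOP and 18.2 ± 6.14 CPM in DMSO (SD, n = 3 each), with overlapping libraries. Without replicate 2 of DMSO, the library that stood apart, the log2 ratio of the sums was 0.72 in place of 0.41. A higher mean CPM in ETOP was seen in 36 of the 50 genes at time point 0, beside 51.4% of all genes. SNORD104, SNORA73B, SNORD99, SNORA71B and SNORA3B lay higher in all 3 ETOP libraries than in any DMSO library (5 of 50, beside 3.93% of all genes), and SNORD30 and SNORD15B lay lower (2 of 50, beside 3.08%). SNORD104 had 65 reads in ETOP against 22 in DMSO at time point 0, a log2 difference of 1.36 (SE 0.70, adjusted p = 0.9998, edgeR). At time point 40 the sums were 6.86 ± 0.71 CPM in ETOP and 5.36 ± 0.56 CPM in DMSO (SD, n = 3 each), and the libraries did not overlap.

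For the ETOP against DMSO differences at time points 0, 20 and 40, and for the difference between the arms in the change to 20 or to 40, edgeR, DESeq2 and limma-voom each called 0 of the 50 genes. The share of all genes called by DESeq2 and limma-voom is not given, so their 0 calls do not set these genes apart. Under the 18-read minimum, unadjusted p values below 0.05 in edgeR numbered 0, 1 and 4 of the 50 for the differences at 0, 20 and 40, beside 5.37%, 1.07% and 1.21% of all genes. For the difference in change they numbered 0 at 20 and 2 at 40, beside 1.81% and 2.16% of all genes. The changes in the arms are thus given side by side, and no difference between them was called. For the difference in change edgeR without the replicate block also called 0 of all genes tested, and why was not tested.

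Other families of short RNA genes showed different shares left. The 49 microRNA precursor genes with at least 18 reads stood at 71.3% of time point 0 at 40 in ETOP, from 13.5 ± 3.02 CPM at 40 and 18.9 ± 2.25 CPM at 0 (SD, n = 3 each). In DMSO they stood at 28.9%, but the replicate of DMSO at 0 that stood apart held 103 CPM, against 15.91 and 15.99 CPM in the other two. Replicates 1 and 3 of DMSO stood at 85.3% and 102%. The 12 spliceosomal U RNA genes stood at 57.7% in ETOP and 75.2% in DMSO. By replicate number the U RNA genes stood at 27.1%, 61.6% and 90.4% in ETOP and at 95.3%, 36.9% and 136% in DMSO. In ETOP replicate 1 that is below the 29.6% of the snoRNA and scaRNA genes, and in DMSO replicate 2 the microRNA genes, at 8.88%, were below their 20.8%. Differences between the families were not tested.

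Genes for the proteins that make snoRNAs work were not called. There were 8 genes for the core proteins of both snoRNP classes, 10 for snoRNP assembly, 10 for snoRNA processing and 8 for Cajal body components. All were tested, and edgeR called 0 in either arm at 40 against 0, with or without the replicate block. Among all genes, 0.204% were called lower in ETOP and 0.423% in DMSO, or 1.01% and 1.21% with the block. At such shares, 0 calls on lists this short does not set these genes apart from all genes. ZNHIT3, PARN and SMN1 of these lists had no read in 6, 4 and 5 of the 6 libraries of replicate 3 and reads in all others, so for them the absence of a call says little. Median log2 changes for the core proteins were 0.05 in ETOP and -0.08 in DMSO, with both medians over all genes near 0. FBL, the methyltransferase of C/D box snoRNPs, averaged 123 ± 11.4 CPM at 40 and 122 ± 14.6 CPM at 0 in ETOP, and 123 ± 13.6 CPM at 40 and 131 ± 9.75 CPM at 0 in DMSO (SD, n = 3 each). DKC1, the pseudouridine synthase of H/ACA box snoRNPs, had log2 changes of 0.05 in ETOP and -0.01 in DMSO. Lowest in unadjusted p in ETOP were USPL1, a Cajal body SUMO protease, at -0.56, and TOE1, a nuclease that trims short RNAs, at -0.44 (adjusted p = 0.882 and 0.99998, edgeR). In DMSO it was EXOSC3, a subunit of the RNA exosome, at -0.43. Of 11 other short noncoding RNA genes, RMRP, RPPH1, RN7SK, RN7SL1 and RNY3 had no read in any library, and RN7SL2 alone passed the filter, with a log2 change of -0.83 in ETOP and -0.20 in DMSO that did not pass.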

How the data were processed

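The deposited files hold whole-number read counts per gene for 18 RNA-seq libraries. Per the labels' protocols, libraries were made with a stranded mRNA kit, and the submitters' processing notes name bcl2fastq, HISAT2, featureCounts and the GRCh38 build. For strand settings, the annotation release and reads with several places, nothing is stated in the sources at hand. File headers of replicate 3 are worded differently from the others. Members and gene lists were chosen with earlier results of these data known. Symbols came from a gene ID table that matched 56948 of 58051 IDs, and hosts, coordinates and sequences from GENCODE 29, which held 57447. Where several genes contained a member, the host was the one with the highest mean CPM.

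CPM is the count scaled to 1000000 reads of the library. Tests used edgeR 4.0.16 (R 4.3.3), quasi-likelihood with TMM factors (0.978 to 1.02), the default filter (14186 genes, 99.8% of counts) and 1 model of 6 groups, with Benjamini-Hochberg adjustment over all genes and a threshold of 0.05. Only 5 members passed that filter, so a minimum of 18 counts (18786 genes) was also used. Alternatives were other scalings, DESeq2 1.42.0, limma-voom (limma 3.58.1), the replicate block, the compared groups alone and leaving libraries out. Intervals cover counting error only, at 95%, and reads carry no molecular identifiers. Same-numbered libraries deviated together in all 45 pairs (correlations 0.359 to 0.911), so replicate numbers pair the libraries. The replicate block uses this pairing, while the main model and the fits with libraries left out do not. No 2 libraries were identical among 153 pairs. Values were given by rule for the 20 members with the highest mean CPM, for those called, and for the largest changes. Genes outside that rule (SNORD30, SNORD15B and those at the minimum) were chosen after their values were seen.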

Additional observations from a re-analysis of the deposited data

How the results depend on the processing

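Counts of members called rest on few reads. At 40 against 0, among the 5 genes of the default filter, the compared groups alone gave 0 calls in ETOP and 0 in DMSO, and the replicate block gave 2 in DMSO, SNORA73B and SNORA33 (1.21% of all genes called lower). Over all 50 genes, under the 18-read minimum, DMSO had 4 calls with the replicate block (1.05% of all genes), 0 with DESeq2 (0.552%) and 2 with limma-voom (0.240%). Leaving out libraries gave 0 to 2 in ETOP under either filter, 0 to 1 in DMSO under the default filter and 0 in DMSO under the 18-read minimum. For these fits and for the compared groups alone, the share of all genes called is not given. Their counts thus show only that the calls change with the libraries used. Counts at 20 and between arms stayed at 0 under every alternative run, the replicate block included, and are not read as a result about the 50 genes. Other scalings left every count of calls within 1.5 times. Sums of CPM kept their direction under every alternative but 1. The DMSO log2 ratio of 20 over 0, -0.34 over all libraries, ran from -0.50 to -0.031 when libraries were left out, so it came close to no change. The sum that turned was the ETOP minus DMSO log2 ratio at 20, -0.071 over all libraries. It was 0.085 without replicate 1 of DMSO, and ran from -0.17 to 0.085 when libraries were left out. The 40 over 0 log2 ratios of the sums ran from -1.91 to -1.70 in ETOP and -1.96 to -1.45 in DMSO when libraries were left out.

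Direction turned for genes that did not pass the test, all under the 18-read minimum at 40 against 0. In DMSO, SNORD4A had 0.52 without replicate 2 of time point 0, SNORD17 had -0.36 without replicate 3 and -0.29 without replicate 3 of time point 0, and SNORA11F had -0.079 and -0.33 without replicate 1 of time point 0 or replicate 2 of 40. In ETOP, SNORD3A had -0.057 with the replicate block, -0.012 with library size scaling, and -0.54 and -0.28 without replicate 1 of time point 0 or of 40. SNORD62B had -0.48 without replicate 3 and -0.23 without replicate 3 of time point 40, and SNORA55 had -0.054 and -0.16 without replicate 1 of time point 0 or of 40. SCARNA12 had -0.24 with the replicate block, -0.61 with limma-voom, -1.84 without replicate 2 of time point 40 and -0.0050 without replicate 3 of time point 0. The cause was not tested.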
